A study of Saccharomyces cerevisiae with 6 samples.

Results

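PRM1 to PRM10 are 10 genes of budding yeast (Saccharomyces cerevisiae) that share the name pheromone-regulated membrane protein. They were taken by their systematic names, and all 10 had a row among the 6282 rows of the deposited table. Each of the 10 also had enough values to enter the fit across 6208 genes. Messenger RNA was measured on 6 2-colour microarrays, each of which set an aerobic culture (grown in air) against a hypoxic one (grown with little oxygen). Wild-type cells supplied both cultures of 3 arrays, and hap1 deletion cells, which lack the gene of the transcription factor Hap1, supplied those of the other 3. The replicates of a strain were cultures grown separately on different days. The labels do not state the strain background, the mating type, the oxygen level or the time in hypoxia.

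When a haploid yeast cell meets the pheromone of the opposite mating type, a receptor at its surface activates a G protein and a MAP kinase cascade. The cascade releases the transcription factor Ste12 from its inhibitors, and Ste12 switches on the genes needed to attach, fuse the cells and fuse the nuclei. The PRM genes encode proteins with predicted membrane-spanning segments whose messenger RNA rises with pheromone, and they are grouped by that response rather than by 1 shared function. Hap1 is a heme-responsive factor that activates many respiratory and sterol genes in air and takes part in repression when heme is scarce. No pheromone treatment is named in the labels.

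All values are log2 ratios of hypoxic over aerobic RNA, so 1 means a doubling in hypoxia and a negative value means less RNA in hypoxia. Each mean is given with its SD over the arrays of a strain. The difference between strains is the mean of hap1 deletion minus the mean of wild type, with limma's moderated standard error (SE). It is a difference of ratios and cannot tell whether the aerobic or the hypoxic level differed between strains. In RNA of whole cultures, fewer cells expressing a gene and less RNA per cell cannot be told apart either. The family was proposed with results of these arrays known and was to be compared between the strains, so the values of its members are a description and no p-value is given for them. Where calls of the fit are counted among members, they are set beside the percentage of all genes called, and nothing is read from them.

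Arrays of a strain correlated across genes at r from 0.329 to 0.575, and arrays of different strains at 0.0971 to 0.538, so the strains were not cleanly separated. Genes are not independent replicates. The ratio of HAP1 itself, at 0.50 to 1.10 in wild type and 0.47 to 0.72 in the deletion strain, does not check the deletion, since each array compared a strain with itself. Hap1 deletion replicate 1 lacked 678 of the 6282 values, against 15 to 349 on the other arrays. It had no value for PRM3, PRM6 and PRM10, which therefore rest on 2 deletion arrays. Over all genes the medians were near 0, at -0.04 in wild type and -0.06 in the deletion strain. At a Benjamini-Hochberg adjusted p under 0.05, limma's test called 119 genes higher and 144 lower in hypoxia in wild type, and 155 higher with 113 lower in the deletion strain. The difference between strains was called for 19 genes higher and 3 lower in the deletion strain. With arrays centred and scaled to 1 spread these splits became 180 and 167, 154 and 71, and 3 and 0. An unadjusted p under 0.05 was reached by 24.1% of all genes in wild type, 24.7% in the deletion strain and 7.97% for the difference, and counts of that kind for gene lists are set beside these shares.

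The ratios of the PRM genes did not move as a block in either strain. In wild type 6 members (PRM1, PRM2, PRM4, PRM5, PRM8 and PRM9) lay above 0 on all 3 arrays, where 24.1% of all genes did. PRM3, PRM7 and PRM10 lay below 0 on all 3, as did 28.6% of all genes, and PRM6 had both signs. In the deletion strain PRM4, PRM5, PRM8 and PRM10 lay above 0 on every array that measured them (20.7% of all genes), and PRM3, PRM6 and PRM7 lay below 0 (29.3%). PRM1, PRM2 and PRM9 had both signs there. The median over the 10 genes was 0.58 in wild type and 0.16 in the deletion strain. The deletion median was 0.36 without hap1 deletion replicate 1, 0.10 without replicate 2 and -0.15 without replicate 3. The fit called 2 members higher (PRM5 and PRM8) and 2 lower (PRM7 and PRM10) in wild type, beside 4.24% of all genes called. In the deletion strain it called 2 higher (PRM4 and PRM10) and none lower, beside 4.32% of all genes. The 4 wild-type calls became 0 when any 1 of the wild-type arrays or hap1 deletion replicate 2 was left out. They became 3 in the absence of deletion replicate 3, and 5 in the absence of deletion replicate 1. The 2 deletion calls became 1 without hap1 deletion replicate 1 or wild-type replicate 1 and 0 without any other 1 of the arrays.

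**Figure D1:**
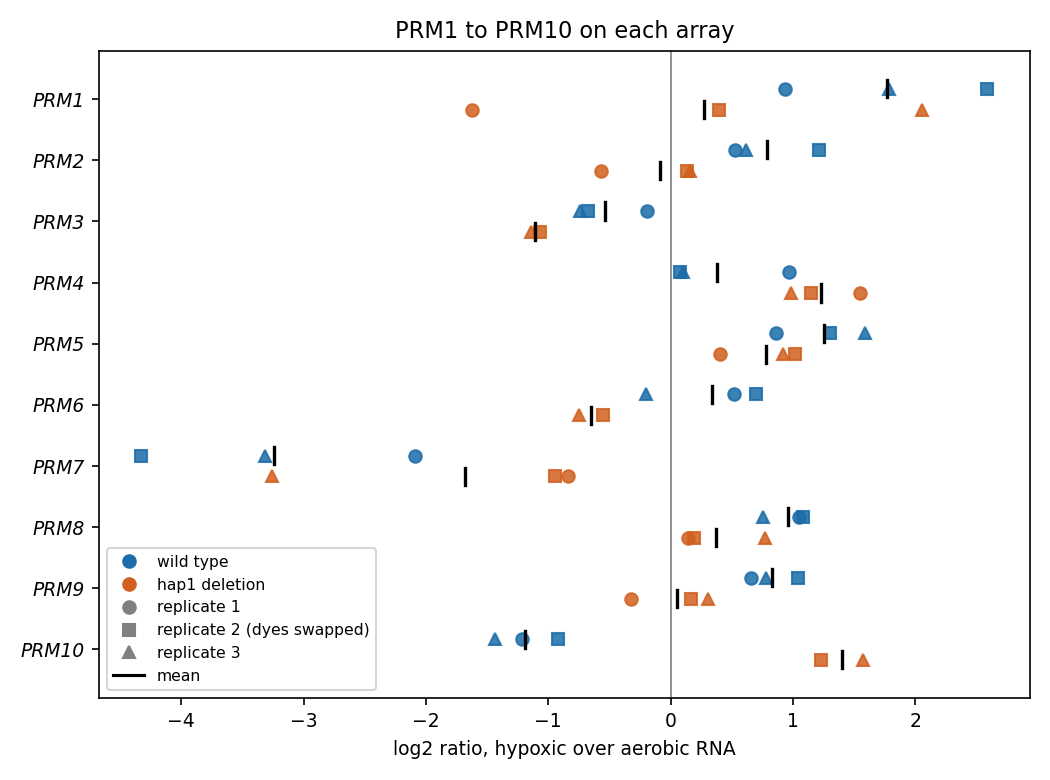
Log2 ratio of hypoxic over aerobic RNA (x axis) for PRM1 to PRM10 (y axis) on each array. Blue symbols are wild type and orange symbols hap1 deletion, the symbol shape gives the replicate, and black bars are strain means. PRM10 lies between -1.43 and -0.92 on the wild-type arrays and at 1.23 and 1.58 on the deletion arrays, and PRM1 spans -1.62 to 2.05 in the deletion strain.

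Between the strains, 7 members had a lower mean ratio in the deletion strain (PRM1, PRM2, PRM3, PRM5, PRM6, PRM8 and PRM9) and 3 had a higher one (PRM4, PRM7 and PRM10). Of all genes, 52.6% had a lower mean in the deletion strain. The median difference was -0.58 over the members and -0.03 over all genes. The arrays of the strains did not overlap for 6 members, beside 16.3% of all genes. In 4 of these (PRM2, PRM3, PRM6 and PRM9) every deletion value lay below every wild-type value (8.94% of all genes), and in PRM4 and PRM10 every deletion value lay above (7.35%). For PRM4 the gap was 0.01, and for PRM2, PRM3, PRM6 and PRM9 it ran from 0.33 to 0.37. For PRM10 the gap was 2.15. PRM3, PRM6 and PRM10 were compared on 2 deletion arrays, which separate from wild type more easily than 3. Without hap1 deletion replicate 3 the count became 9 beside 34.8% of all genes, and without wild-type replicate 1 it became 8 beside 31.7%, since fewer arrays overlap less often. Without the array that lacked 3 of the spots, hap1 deletion replicate 1, it was again 6, beside 25.5% of all genes. The fit called the difference of 1 member, PRM10, with the deletion strain higher, beside 0.354% of all genes called (0.306% higher and 0.0483% lower), and of none when any 1 of the 6 arrays was left out.

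PRM10 (YJL108C), which encodes a predicted membrane protein of unknown function, was lower in hypoxia in wild type and higher in hypoxia in the deletion strain. It read -1.21, -0.92 and -1.43 on wild-type replicates 1 to 3, and 1.23 and 1.58 on hap1 deletion replicates 2 and 3. Its values thus had one sign on all wild-type arrays and the other on both deletion arrays, which held for 3.21% of all genes. With 2 deletion values this is met more easily than with 3. The mean was -1.19 ± 0.26 (SD, n = 3) in wild type, a 2.28-fold lower level in hypoxia, and 1.40 ± 0.24 (SD, n = 2) in the deletion strain, a 2.64-fold higher level. The difference was 2.59 (SE 0.31), or 6.02-fold, the largest of the 10 and the 45th largest in size among the 6208 genes. Leaving out any 1 array kept it between 2.42 and 2.76, on 1 deletion array in 2 of those cases.

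Among the 5294 genes outside the family with values on all 6 arrays, the 5 whose ratios lay nearest to those of PRM10 were ARE2, ERG8, QCR8, ERG27 and ERG10. Likeness was the root mean square distance over the 5 arrays that measured PRM10, which ran from 0.48 to 0.51 for these genes. ERG10, ERG8 and ERG27 encode enzymes of sterol synthesis, ARE2 an enzyme that esterifies sterols, and QCR8 a subunit of respiratory complex III. ERG8 read -1.16, -1.93 and -1.80 in wild type and 1.97, 1.50 and 1.50 in the deletion strain. ARE2, the nearest, read -0.45, -1.58 and -1.37 in wild type and 0.21, 1.01 and 1.31 in the deletion strain. All 5 were below 0 on every wild-type array and above 0 on every deletion array, of which hap1 deletion replicate 1 did not enter the distance. They were picked for their values, so no test is given for this likeness.

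The genes next to PRM10 on the chromosome did not share its change of sign between strains, though UTP10 was also below 0 on all wild-type arrays. UTP10, which encodes a ribosome assembly protein, lay between -0.90 and -0.30 in wild type and between -0.64 and -0.11 in the deletion strain. YJL107C, a reading frame of unknown function on the other side of PRM10, read -3.16, 2.17 and -1.46 in wild type and -0.28 and -0.61 on hap1 deletion replicates 1 and 3. Its wild-type arrays ranged over both signs, and hap1 deletion replicate 3 was the only deletion array that measured both it and PRM10. Neither neighbour passed limma's test in any comparison (adjusted p for the difference between strains 0.878 for UTP10 and 0.965 for YJL107C).

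**Figure D2:**
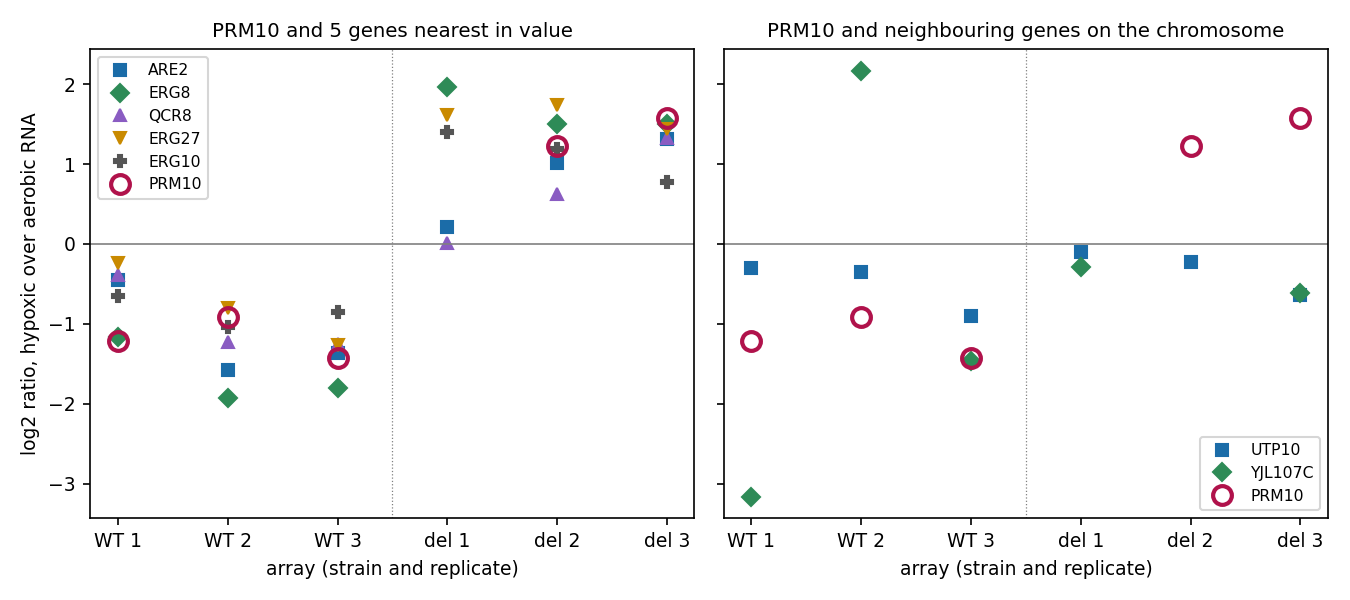
Log2 ratio of hypoxic over aerobic RNA (y axis) on each array (x axis, WT for wild type and del for hap1 deletion, with the replicate number). The left panel sets PRM10 (open red circles) beside the 5 genes nearest to it in value, and the right panel beside its chromosomal neighbours UTP10 and YJL107C. PRM10 has no value on hap1 deletion replicate 1, and YJL107C has none on replicate 2. The change of sign of PRM10 between strains appears in the left panel's genes, which were chosen by their distance, and not in the neighbours.

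PRM7 (YDL039C), a predicted membrane protein whose role is not established, had the lowest mean ratio of the family in each strain. On hap1 deletion replicate 1 PRM1 was lower, and on replicate 2 PRM3 was lower. PRM7 read -2.09, -4.32 and -3.32 in wild type and -0.84, -0.94 and -3.26 in the deletion strain. Both strains were below 0 on all arrays, and hap1 deletion replicate 3 lay within the wild-type range while the other deletion arrays lay above it. The mean of -3.24 ± 1.12 (SD, n = 3) in wild type was a 9.48-fold lower level in hypoxia and the 5th lowest of the 6208 genes. In the deletion strain the mean was -1.68 ± 1.37 (SD, n = 3), a 3.21-fold lower level, and the 27th lowest. The difference of 1.56 (SE 0.80) was 2.35 without hap1 deletion replicate 3 and 1.02 without wild-type replicate 2. BSC1, which adjoins PRM7 on the chromosome, read -1.84, 1.77 and -2.52 in wild type and -0.70, -1.10 and -3.17 in the deletion strain, and passed limma's test in neither strain (adjusted p = 0.567 and 0.265). The neighbour on the other side, NAT1, a subunit of a protein acetyltransferase named here because it adjoins PRM7, had means of -0.10 and -0.52.

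PRM1 (YNL279W) encodes a protein that acts at the contact of mating cells, where their plasma membranes fuse. Its ratios were 0.93, 2.59 and 1.78 in wild type and -1.62, 0.39 and 2.05 in the deletion strain. It was above 0 on all wild-type arrays, while the deletion arrays ran from below every wild-type value to above the wild-type mean. The wild-type mean was 1.77 ± 0.83 (SD, n = 3), the highest of the family and a 3.41-fold higher level in hypoxia, against 0.27 ± 1.84 (SD, n = 3) in the deletion strain. The difference of -1.49 (SE 0.91) rested on single arrays. It was -0.55 when hap1 deletion replicate 1 was left out and -2.38 when replicate 3 was.

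PRM2 and PRM3 are linked to the fusion of the nuclei that follows cell fusion, and PRM3 encodes a protein of the nuclear envelope needed for that step. PRM2 (YIL037C) read 0.53, 1.21 and 0.61 in wild type and -0.57, 0.13 and 0.16 in the deletion strain. Every wild-type array was thus above every deletion array, with a difference of -0.87 (SE 0.32). PRM3 (YPL192C) read -0.19, -0.67 and -0.74 in wild type and -1.07 and -1.14 on hap1 deletion replicates 2 and 3. It was the opposite of PRM2 in sign within wild type, and its deletion values were lower still, with a difference of -0.57 (SE 0.30). Of 14 genes of nuclear congression and fusion, none passed limma's test in wild type, in the deletion strain or for the difference (1 had an unadjusted p under 0.05 in wild type, 0 in the deletion strain and 1 for the difference, beside 24.1%, 24.7% and 7.97% of all genes). KAR5, which acts in nuclear envelope fusion, read 0.65, 0.87 and 0.17 in wild type and -0.50, -0.15 and -0.81 in the deletion strain. Its strains did not overlap, but the difference of -1.05 (SE 0.30) did not pass (limma adjusted p = 0.408). CIK1, a partner of a kinesin motor in karyogamy, read 0.33, 0.15 and 0.08 in the deletion strain and -0.26, 1.92 and 0.30 in wild type.

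PRM5 (YIL117C) is a known target of the cell wall integrity pathway, a MAP kinase cascade that answers wall stress through the kinase Slt2 and the factor Rlm1. It read 0.86, 1.30 and 1.59 in wild type and 0.41, 1.02 and 0.92 in the deletion strain. All 6 values were above 0 and the strains overlapped, with means of 1.25 ± 0.36 and 0.78 ± 0.33 (SD, n = 3 each) and a difference of -0.47 (SE 0.30). That difference was -0.28 without hap1 deletion replicate 1 and -0.30 without wild-type replicate 3. Of 26 genes of the cell wall integrity pathway, none passed limma's test in either strain or for the difference, with 5, 9 and 2 at an unadjusted p under 0.05 (24.1%, 24.7% and 7.97% of all genes). Their median difference was -0.06. SLT2 had means of 0.24 ± 0.30 in wild type and 0.08 ± 0.75 in the deletion strain, and RLM1 had 0.46 ± 0.16 and 0.09 ± 0.21 (SD, n = 3 each). YNL058C, the relative of PRM5 elsewhere in the genome, read -0.35, -0.07 and 0.35 in wild type and -1.01, -0.76 and -0.69 in the deletion strain. It was lower than PRM5 on each array as a ratio, and its difference between strains of -0.79 (SE 0.27) did not pass (limma adjusted p = 0.524).

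PRM6 (YML047C), also named KCH2, encodes a membrane protein of low-affinity potassium uptake. It read 0.52, 0.70 and -0.20 in wild type and -0.56 and -0.75 on hap1 deletion replicates 2 and 3. Both deletion values lay below all wild-type values, with a difference of -0.99 (SE 0.36). Its relative KCH1 read -0.93, 0.69 and 0.38 in wild type and 0.01, -0.48 and -0.53 in the deletion strain. The strains overlapped for KCH1, and its difference was -0.38 (SE 0.45, limma adjusted p = 0.842). PRM4 (YPL156C), a predicted membrane protein, read 0.97, 0.08 and 0.10 in wild type and 1.55, 1.15 and 0.98 in the deletion strain. Wild-type replicate 1 nearly reached the lowest deletion array, while the other wild-type arrays were close to 0. The difference was 0.84 (SE 0.34), and 1.14 without wild-type replicate 1.

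PRM8 and PRM9 belong to the DUP240 family of small membrane proteins, some of which act in transport between the endoplasmic reticulum and the Golgi. Their sequences are alike, so their spots may share signal. PRM8 (YGL053W) read 1.05, 1.09 and 0.75 in wild type and 0.14, 0.19 and 0.77 in the deletion strain. PRM9 (YAR031W) read 0.66, 1.04 and 0.78 in wild type and -0.33, 0.17 and 0.31 in the deletion strain. Both were above 0 on all wild-type arrays, with wild-type means of 0.96 ± 0.18 and 0.83 ± 0.20 (SD, n = 3 each) that were the least variable of the family. The deletion arrays lay below them for PRM9, and for PRM8 only replicate 3 reached the wild-type range. The differences were -0.59 (SE 0.28) for PRM8 and -0.78 (SE 0.27) for PRM9.

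The differences of the 7 other DUP240 genes were all below 0 (52.6% of all genes were), between -0.77 and -0.08, with a median of -0.18. As with PRM8 and PRM9, spots of 1 family may share signal, so these 7 are not independent genes. None passed limma's test of the difference (0 had an unadjusted p under 0.05, beside 7.97% of all genes). DFP4 (YHL044W) rose in hypoxia in both strains, by 1.47 ± 0.38 in wild type (limma adjusted p = 0.0281, from 0.0201 to 0.157 over the alternatives) and by 1.32 ± 0.42 in the deletion strain (limma adjusted p = 0.0294, from 0.0209 to 0.179). DFP4 was the only 1 of the 7 to pass in wild type and in the deletion strain, where 1.92% and 2.5% of all genes rose. It lost the call in wild type without any 1 of the wild-type arrays or hap1 deletion replicate 2. In the deletion strain the call was lost when replicate 2 or 3 of either strain was left out. UIP3, KTD1, DFP2 and MST28 lie in the same chromosomal stretch as PRM9, and had wild-type means of 0.74, 0.59, 0.36 and 0.55 and deletion means of 0.50, 0.42, 0.18 and 0.31. None of these 4 passed, and neither did DFP3, at -0.10 and -0.18. MST27, the neighbour of PRM8, read 0.01, -0.67 and -0.03 in wild type and -0.10, -2.75 and -0.16 in the deletion strain, where replicate 2 stood far below the other arrays, and did not pass in any comparison.

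**Figure D3:**
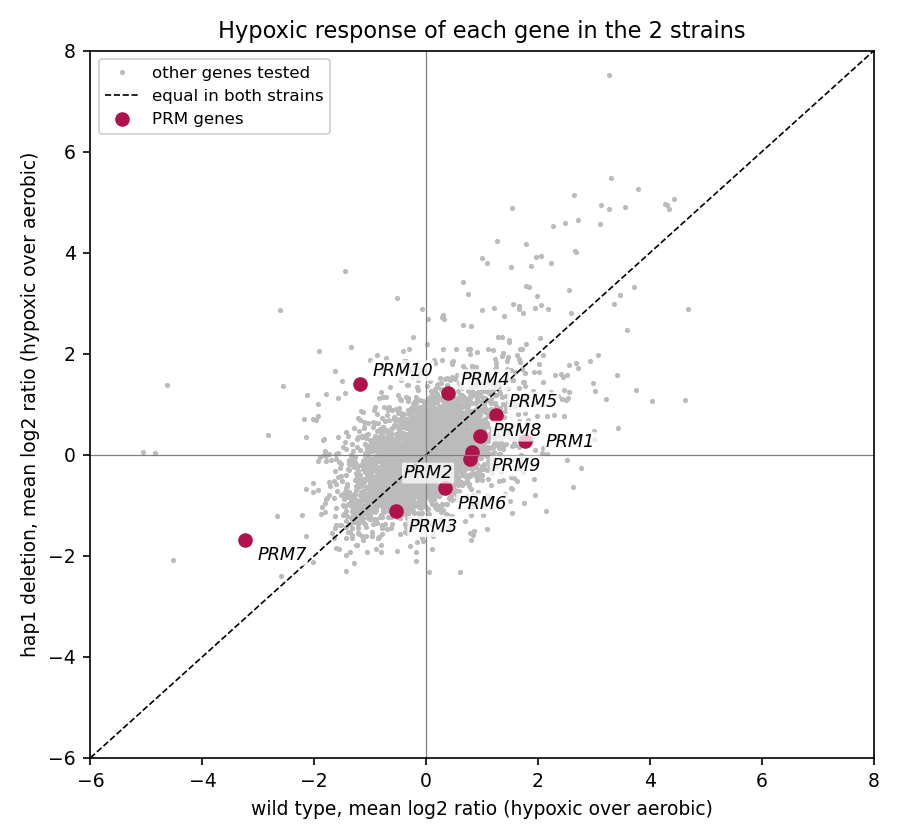
Mean log2 ratio of hypoxic over aerobic RNA in wild type (x axis) and in hap1 deletion (y axis) for the 6208 genes tested (grey) and the PRM genes (red). The dashed line marks equal ratios, below which 7 of the 10 PRM genes lie, and PRM10 stands above it at -1.19 and 1.40.

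Beyond the PRM genes, 12 lists with 133 genes in all were followed, called the pathway lists below. They cover pheromone signalling and mating, relatives of PRM genes, cell wall integrity, filamentous growth, cell type markers and meiosis, and hold no PRM gene. They are thus wider than the pathway that controls the PRM genes. Some genes stand in several lists and count once among the 133. The lists were chosen with earlier results of these arrays known. By limma's test, 4 of the 133 genes rose and none fell in wild type (1.92% and 2.32% of all genes did), 2 rose and 1 fell in the deletion strain (2.5% and 1.82%), and none passed for the difference between strains (0.354% of all genes), where 18 had an unadjusted p under 0.05 (7.97% of all genes). The 4 wild-type rises became 0 without any 1 of the wild-type arrays or hap1 deletion replicate 2. The 3 deletion calls became 0 without hap1 deletion replicate 2 or 3, 1 without wild-type replicate 2 or 3, and 2 without hap1 deletion replicate 1 or wild-type replicate 1. The median difference over the 133 genes was -0.17 (-0.03 over all genes), and 83 of them had a lower mean in the deletion strain (52.6% of all genes). Without overlap between strains, 22 of them had the deletion lower and 3 had it higher (8.94% and 7.35% of all genes).

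Among the 6 pheromone and receptor genes, MFA2, which encodes the a-factor pheromone, fell by 1.20 on the log2 scale in the deletion strain (limma adjusted p = 0.0460, from 0.0342 to 0.180 over the alternatives). It kept that call in only 1 of 12 alternatives, the test of genes with all 6 values, and lost it without any 1 of the arrays. It read 0.23, 0.96 and -0.03 in wild type and -0.96, -1.02 and -1.61 in the deletion strain. MFA2 was the only 1 of the 6 to pass in any comparison, and 1.82% of all genes fell in the deletion strain. An unadjusted p under 0.05 was found for 0, 2 and 1 of the 6 in wild type, in the deletion strain and for the difference (24.1%, 24.7% and 7.97% of all genes). The receptor genes STE2 and STE3 did not pass. STE2, the receptor for alpha-factor, had a mean of 0.27 ± 0.81 in wild type and -0.68 ± 0.14 in the deletion strain (SD, n = 3 each). STE3, the receptor for a-factor, had 0.78 ± 0.83 (SD, n = 2) and 1.13 ± 0.44 (SD, n = 3). None of 11 genes of pheromone processing and export passed in any comparison (0, 2 and 1 had an unadjusted p under 0.05 in wild type, in the deletion strain and for the difference, beside 24.1%, 24.7% and 7.97% of all genes), and their median difference was -0.33.

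None of 24 signalling genes passed limma's test in either strain or for the difference (5, 6 and 4 had an unadjusted p under 0.05, beside 24.1%, 24.7% and 7.97% of all genes), and their median difference was -0.21. STE12, the transcription factor of the pathway, read -0.88, 0.43 and 0.05 in wild type and -0.62, -0.98 and -1.10 in the deletion strain (limma adjusted p = 0.686 for the difference). GPA1, the G protein subunit bound to the receptor, had means of 0.26 and -0.11, and FUS3, the mating MAP kinase, had -0.11 and 0.04. KSS1, the related kinase of filamentous growth, had -0.75 and -0.27. FAR1, which arrests the cell cycle in response to pheromone, had 0.63 ± 0.26 and -0.03 ± 0.09 (SD, n = 3 each). SST2, which switches the G protein off and is itself induced by pheromone, read 0.51, 1.02 and 0.96 in wild type and -0.22, -1.02 and -1.12 in the deletion strain. Its signs were opposite between strains on every array, and the difference of -1.62 (SE 0.33) did not pass (limma adjusted p = 0.192).

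Of 19 mating genes other than PRM genes, 1 rose in each strain (1.92% of all genes in wild type and 2.5% in the deletion strain). None passed for the difference. An unadjusted p under 0.05 in limma's test was found for 8, 5 and 3 of the 19 in wild type, in the deletion strain and for the difference (24.1%, 24.7% and 7.97% of all genes). The gene that rose was GIC2, an effector of the polarity switch Cdc42. It rose by 1.20 ± 0.27 in wild type (limma adjusted p = 0.0273, from 0.0190 to 0.157 over the alternatives) and by 1.30 ± 0.23 in the deletion strain (limma adjusted p = 0.0174, from 0.0119 to 0.129). The call in wild type was lost without any 1 of the wild-type arrays or hap1 deletion replicate 2, and the call in the deletion strain without hap1 deletion replicate 2 or 3. FUS1, a cell fusion gene often used as the reporter of the pheromone pathway, read 0.27, 1.11 and 0.67 in wild type and 0.01, 1.04 and -0.02 in the deletion strain. Its strains overlapped (limma adjusted p = 0.839 for the difference). AGA1, the anchor of a mating adhesin, read -0.53, 2.82 and 2.96 in wild type and -1.82, -0.50 and -0.54 in the deletion strain. FIG1, a membrane protein of mating, read -3.04, 3.09 and 2.59 in wild type and -0.59, 2.68 and 0.02 in the deletion strain, and KAR4, a partner of Ste12, read -1.09, 1.17 and 0.67 and 0.05, -0.10 and -0.55. For AGA1, FIG1 and KAR4, wild-type replicate 1 stood below 0 while the other wild-type arrays stood above it, and none of the 3 genes passed in any comparison. Other genes of the list, FUS1 and GIC2 among them, were above 0 on all wild-type arrays, as were PRM1, PRM2, PRM8 and PRM9.

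In filamentous growth, which also uses Ste12, PGU1, a secreted pectinase, rose by 1.18 ± 0.36 in wild type (limma adjusted p = 0.0288, from 0.0206 to 0.157 over the alternatives), and it lost the call without any 1 of the wild-type arrays or hap1 deletion replicate 2. It was the only 1 of 12 genes to pass in wild type (1.92% of all genes rose there), and none passed in the deletion strain or for the difference. An unadjusted p under 0.05 was found for 4, 0 and 3 of the 12 in these comparisons, beside 24.1%, 24.7% and 7.97% of all genes. PGU1 read 0.90, 1.58 and 1.06 in wild type and 0.39, 0.43 and 0.33 in the deletion strain. FLO11, an adhesin of filamentous growth, read 1.78 and 1.34 on wild-type replicates 1 and 3 and -0.40, 0.15 and 0.92 in the deletion strain, and TEC1, a partner of Ste12, had means of 0.34 and -0.35.

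Markers of cell type were set beside the PRM genes. Most of the a-specific genes and all of the alpha-specific ones also stand in the pheromone and mating lists above, so they are largely the same genes again. Of 7 genes specific to a-type cells, 6 had a lower mean ratio in the deletion strain (52.6% of all genes did). The highest difference among the 7 was 0.67. For 4 of them the strains did not overlap, all with the deletion lower (8.94% of all genes). AGA2, the binding subunit of the adhesin that AGA1 anchors, was named after its values were seen and had the lowest difference of the 133 genes, -3.25 (SE 0.74). It read 0.55, 3.74 and 2.12 in wild type and -1.16, -0.80 and -1.36 in the deletion strain, and did not pass (limma adjusted p = 0.273). The median of the list was -0.01, 1.12 and 0.47 on wild-type replicates 1 to 3 and -0.53, -0.70 and -1.06 on the deletion arrays. The median difference was -0.94, with none passing limma's test of the difference (4 had an unadjusted p under 0.05, beside 7.97% of all genes). Of 4 genes specific to alpha cells, 2 had a lower mean in the deletion strain (52.6% of all genes did). In 1 of the 4, measured on 2 deletion arrays, the strains did not overlap. The deletion was lower there (8.94% of all genes), with a difference of -1.20. The list's median ran from 0.00 to 0.74 over the wild-type arrays and from -0.03 to 0.84 over the deletion arrays. Of 13 meiosis and sporulation genes, 3 had a lower mean in the deletion strain (52.6% of all genes did). Their median difference was 0.51, and 2 had an unadjusted p under 0.05 in limma's test of the difference (7.97% of all genes). For 2 of the 13, both measured on 2 deletion arrays, the strains did not overlap, with the deletion higher (7.35% of all genes). The list medians ran from -0.51 to 0.11 over the wild-type arrays and from -0.09 to 0.76 over the deletion arrays. REC8, a meiotic cohesin subunit, rose by 1.10 ± 0.51 in wild type (limma adjusted p = 0.0497, from 0.0373 to 0.180 over the alternatives), a call lost without any 1 of the arrays, and had 0.80 ± 0.24 in the deletion strain. It was the only 1 of the 13 to pass in any comparison, and 1.92% of all genes rose in wild type. These ratios cannot show a mating type, which the strain's aerobic and hypoxic cultures share, and the part of cell type in the PRM values was not tested.

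**Figure D4:**
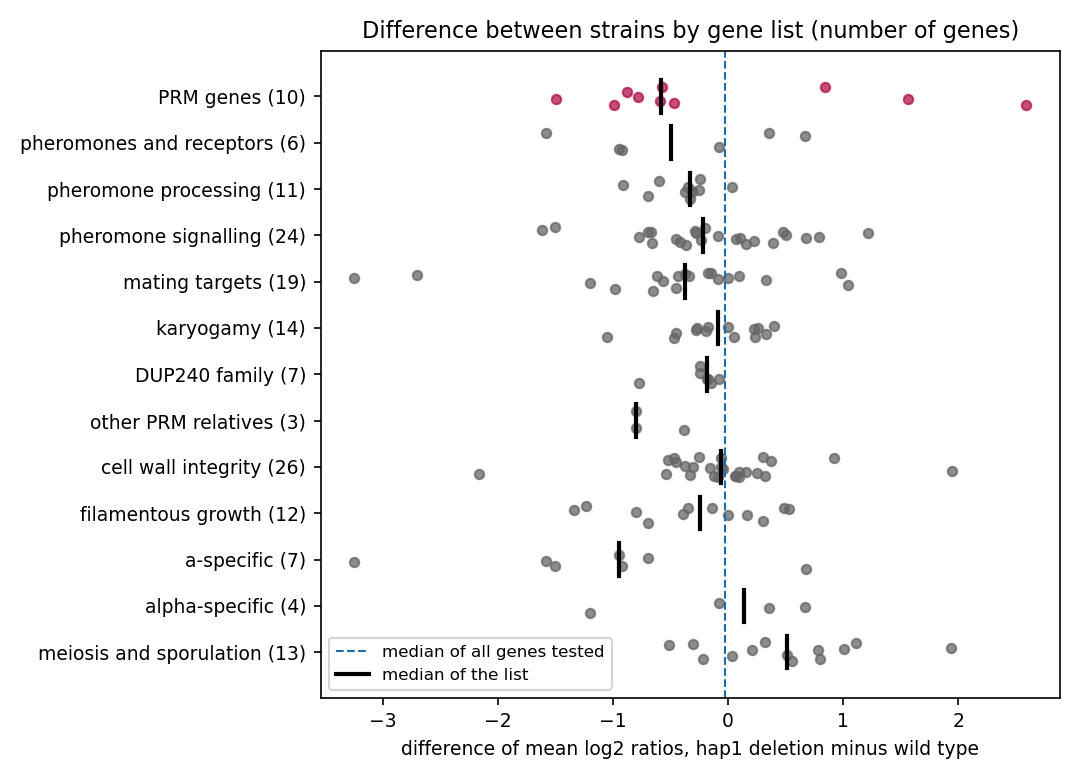
Difference between the mean log2 ratios of the strains, hap1 deletion minus wild type (x axis), for each gene (points) of the PRM family (red) and of the 12 other gene lists (y axis, number of genes in brackets). Black bars are list medians and the dashed line is the median of all genes tested, -0.03. The PRM median is -0.58 and the a-specific median -0.94. A gene that stands in several lists is drawn in each.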

How the data were processed

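The deposited values were log10 ratios, aerobic over hypoxic per the labels' titles, on 2-colour arrays quantified with GenePix 5.0 per the labels. The labels do not state how background, weak spots and array scale were then handled. The base was read from the values: as powers of 10, 242 of 36476 values came out as whole-number fractions (denominators up to 30, relative tolerance 1e-07), as powers of 2 and of e only 7 each. The labels put hypoxic RNA in Cy5 on replicates 1 and 3 and in Cy3 on replicate 2. The replicate 2 arrays correlated positively with the others of their strain, so all were read in the title's direction. For every result the sign was turned, to hypoxic over aerobic, and the scale changed to log2.

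Genes with at least 2 values per strain (6208 of 6282) entered 1 fit across all genes in R 4.3.3 with limma 3.58.1 (functions lmFit and eBayes, 1 spread shared by both strains, two-sided, Benjamini-Hochberg over all genes, threshold 0.05), after a test on simulated data. Members and lists were chosen with earlier results of these data known. The RefSeq table of assembly R64 supplied gene names (5156 rows took a symbol from it) and chromosomal order. Named were all members, listed genes past the threshold, a fixed set of pathway genes, the DUP240 genes, the neighbours of the member with the largest difference, and the 5 genes nearest to it in value. NAT1, AGA2, CWP1, FUS2, CHS7 and KEX1 were named after their values were seen. Only 3 arrays per strain limit the precision. Alternatives were centring, centring with scaling, complete genes only, a dye term, a replicate block, separate fits per strain, and leaving out each array.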

Additional observations from a re-analysis of the deposited data

Results flagged for a closer look

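The difference between strains stood out for PRM10, at 2.59 on the log2 scale (hap1 deletion minus wild type), because every wild-type array lay below 0 and both measured deletion arrays above it. Among the 133 genes of the 12 lists the same held, with the signs exchanged, for 7, where 3.21% of all genes had opposite signs on every array in either direction. SST2 (-1.62) and KAR5 (-1.05) were among them. The other 5, named after their values were seen, were AGA2 (-3.25), CWP1 (-2.16), FUS2 (-0.98, on 2 deletion arrays), CHS7 (-0.65) and KEX1 (-0.35). Opposite signs arise more easily on 2 deletion arrays, as for PRM10 and FUS2, than on 3. None of the 7 passed limma's test of the difference (adjusted p from 0.192 to 0.722), and for PRM10 that difference is not used as a test. It also held for ARE2 (1.97), ERG8 (3.29), QCR8 (1.61), ERG27 (2.37) and ERG10 (1.97), which had been picked for lying near PRM10.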

How the results depend on the processing

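The sign of the difference between strains was kept by all 10 members under every alternative that gave a value, among 10 or 11 per gene. Not every alternative could change it. For the 7 members with all 6 values, complete genes only, a dye term and a replicate block return the same difference by design. Leaving out hap1 deletion replicate 1 cannot change PRM3, PRM6 and PRM10, which have no value there. The median PRM difference stayed between -0.69 and -0.51, and the number of members below 0 stayed at 7 except for 5 where only complete genes were tested, which drops PRM3, PRM6 and PRM10. Under that setting 1 member was below 0 in wild type and 2 in the deletion strain. The deletion median ran from -0.15 (without hap1 deletion replicate 3) to 0.36. Calls were less stable. A replicate block left no call among the PRM genes or the pathway lists in either strain or for the difference (0), and over all genes 0 higher and 2 lower in wild type, 58 and 7 in the deletion strain and 0 and 0 for the difference. The labels do not state that a replicate number pairs the strains, so the block is kept as an alternative only. Same-numbered arrays deviated together at r of -0.03, 0.06 and 0.13, and different-numbered ones at -0.17 to 0.11. These values do not settle whether the arrays were paired. A dye term left 0 PRM calls in each comparison, 0 pathway calls in wild type, and over all genes 28 and 14, 90 and 31, and 7 and 0. Separate fits per strain left 0 PRM and 0 pathway calls, with 0 and 2 over all genes in wild type and 73 and 11 in the deletion strain. Centring with scaling gave 180 higher genes in wild type, 71 lower in the deletion strain, 3 and 0 for the difference and 0 PRM calls there. Complete genes gave 182 lower genes, 7 pathway calls and 1 PRM call in the deletion strain, and 0 PRM calls for the difference. Leaving out 1 array gave 0 to 144 higher and 2 to 199 lower genes in wild type, 28 to 148 and 2 to 89 in the deletion strain, and 2 to 15 and 0 to 1 for the difference. PRM calls were then 0 to 5, 0 to 1 and 0, and pathway calls 0 to 3 in wild type and 0 to 2 in the deletion strain. The non-overlap counts, an alternative chosen after seeing the data, ran from 6 to 9. The causes were not tested.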
